A study of Arabidopsis thaliana with 36 samples.

Results

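The effect of the opt3-2 mutation common to shoots and roots of cadmium-treated Arabidopsis thaliana was examined by RNA sequencing. All 36 of the 36 deposited columns were used. They held 3 technical replicates of each of 12 libraries and were summed to those libraries, 3 biological replicates in each of 4 groups. The groups were wild type (Col-0) shoots, opt3-2 shoots, wild type roots and opt3-2 roots. After 11 d of plate culture and 22 d of hydroponic culture (16 h light, 8 h dark), all 4 groups received 20 µM CdCl2 for 72 h. RNA of 3 to 4 pooled plants made up each sample. Untreated plants were not analysed here, so each value compares genotypes under cadmium and measures no effect of cadmium itself. opt3-2 was represented by 1 mutant line.

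OPT3 is a transporter of the phloem, where it loads iron and so takes part in telling the root how much iron the shoot holds. Plants with little OPT3 activity keep iron uptake genes of the root switched on although their leaves accumulate iron, and they take up more of other metals, cadmium included. A shoot and a root of such a plant can therefore differ in metal status. The opt3-2 allele carries an insertion that lowers OPT3 expression, and the series title sets the plants in work on cadmium and the sensing of iron.

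Total counts per library ran from 21262406 to 36484138. OPT3 itself stood at 389, 321 and 352 CPM in wild type shoots and 23.4, 17.59 and 24.1 CPM in opt3-2 shoots, and 38.4, 47.9 and 41.4 CPM in wild type roots against 9.02, 4.55 and 4.13 CPM in opt3-2 roots, where CPM is the library-size-normalised count after scaling by edgeR's trimmed mean of M-values. Every opt3-2 library lay below every wild type library of its tissue, as the genotype labels have it. The tissue labels were checked in the same way: the summed level of 6 leaf markers was at least 15312 CPM in each shoot library and at most 74.5 CPM in each root library. For 6 root markers the sums were at least 2236 CPM in roots and at most 87.1 CPM in shoots. In bulk tissue, fewer cells of a type and less RNA per cell cannot be told apart.

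The genotype effect averaged over tissues was the mean of the shoot and the root log2 fold change, opt3-2 over wild type, so that each tissue weighed the same. It was tested together with each tissue's own effect by edgeR's quasi-likelihood F test with Benjamini-Hochberg adjustment over 21887 genes, and a gene was called at an adjusted p below 0.05. On average over tissues 2760 genes (12.6%) were higher and 4103 (18.7%) lower in opt3-2. That split depended on scaling: it was 3373 higher and 3174 lower with DESeq2's size factors in edgeR, and 2153 and 5196 with library sizes alone. Within shoots 4660 genes (21.3%) were higher and 4957 (22.6%) lower, and within roots 3828 (17.5%) were higher and 4702 (21.5%) lower.

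Few of these effects were common to both tissues. Genes called in the averaged contrast and in each tissue with the same sign numbered 604 higher (2.76% of those tested) and 457 lower (2.09%). They became 736 and 312 with DESeq2's size factors in edgeR and 472 and 600 with library sizes alone. With a change of 2-fold or more in both tissues as well, 87 genes rose (0.397%) and 18 fell (0.0822%). Of the 4267 genes called in both tissues, 1061 (24.9%) moved the same way and 3206 moved in opposite directions. Only 13.0% of the genes that rose in shoots also rose in roots, whereas 37.9% of them fell there. Across the 21887 tested genes, which are not independent replicates, Pearson's r between the shoot and the root log2 fold change was -0.19 and Spearman's rho -0.26. The scatter of shoot against root effects shows this pattern.

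**Figure D1:**
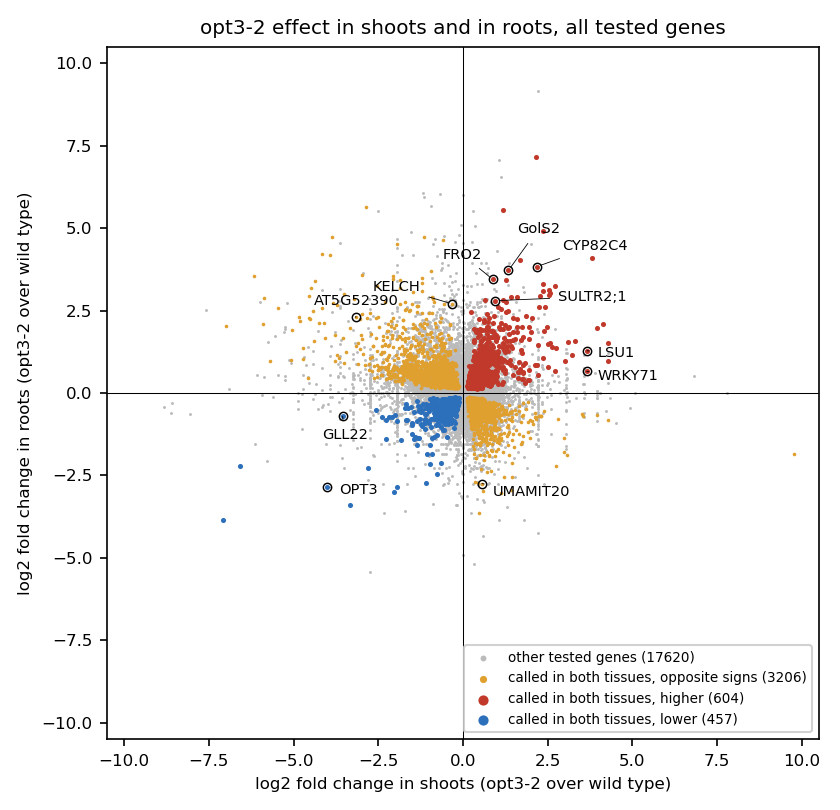
Log2 fold change of opt3-2 over wild type in shoots (x axis) and in roots (y axis), 1 point per tested gene. Red points mark the 604 genes called higher and blue points the 457 called lower in both tissues, orange points the 3206 genes called with opposite signs, and the opposite-sign quadrants hold more called genes than the same-sign quadrants.

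Most calls on average did not come with a call in both tissues. Among genes called higher on average, 1214 were called in 1 tissue with the same sign in the other, 638 were called in 1 tissue with the opposite sign in the other, and 194 were called in both tissues with opposite signs. Another 110 passed only on average. The same classes held 1675, 1292, 557 and 122 of the genes called lower on average. Genes whose 3 opt3-2 libraries lay above all 3 wild type libraries in both tissues numbered 903 (4.13%), and those that lay below numbered 892 (4.08%). Of the genes called the same way in both tissues, 564 of 604 and 435 of 457 had groups apart in both. The calls rest on the same libraries, so this separation is no separate support for them.

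Effects shared in direction were not always shared in size. The difference between the shoot and the root log2 fold change (the interaction) was called for 10542 genes (48.2%) overall. It was called for 179 of the 604 shared rises, of which 115 were larger in roots and 64 larger in shoots. Among the 457 shared falls it was called for 85, of which 55 were larger in shoots and 30 in roots. An effect was termed even where the 95% interval of that difference lay within 0.5 of 0 on the log2 scale, which held for 199 shared rises (32.9%), 256 shared falls (56.0%) and 4551 of all tested genes (20.8%). Shared genes were chosen for a call with the same sign in both tissues, which itself limits that difference. Their shares therefore cannot be weighed against those of all tested genes. Even falls numbered 169 with DESeq2's size factors in edgeR or by DESeq2, and without wild type root replicate 2 there were 129 even rises and 167 even falls. The remaining 240 shared rises and 132 shared falls were neither even nor called different. Median averaged log2 fold changes were 0.65 for shared rises, -0.41 for shared falls and -0.03 for all tested genes.

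Abscisic acid and dehydration genes formed the list with the most members moving together. Abscisic acid accumulates in plants short of water, binds receptors of the PYR/PYL family and through them blocks the clade A protein phosphatases 2C, which otherwise hold the response off. Of 23 tested members, 20 were called higher and 0 lower on average, and 13 rose in both tissues while 0 fell in both. Their median averaged log2 fold change was 0.92, against -0.03 for all tested genes. Of all tested genes, 12.6% were called higher on average and 2.76% rose in both tissues. In shoots, 1 member of the list was called lower. Both groups of products in the list took part: protective proteins of dehydrated cells, and the phosphatases that restrain the hormone's signal.

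LEA4-5 encodes a late embryogenesis abundant protein, one of the hydrophilic proteins that protect drying cells. It stood at 1.57, 1.64 and 1.06 CPM in wild type shoots and 8.27, 8.88 and 4.53 CPM in opt3-2 shoots, and 0.338, 0.211 and 0.301 CPM in wild type roots against 3.01, 2.62 and 2.86 CPM in opt3-2 roots. All opt3-2 libraries exceeded the wild type libraries of their tissue, and the log2 fold change was 2.35 ± 0.26 (SE) in shoots and 3.30 ± 0.32 in roots (adjusted p on average 4.3e-06). A second such protein, LEA7, rose by 2.56 in shoots and 3.04 in roots on the log2 scale from only 46 counts over the 3 wild type shoot libraries and 18 over the root libraries. RD29B, a classic reporter of abscisic acid, rose by 1.26 in shoots and 2.45 in roots, with 12 counts over the wild type root libraries. The dehydrin RAB18 rose by 0.77 in shoots and 2.29 in roots, and KIN2, a cold- and dehydration-induced gene, by 0.61 in shoots and 2.21 in roots.

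NCED3 encodes the enzyme that limits abscisic acid synthesis under water deficit, and it rose as well. Its level was 25.6, 32.4 and 25.5 CPM in wild type shoots and 45.1, 50.5 and 44.5 CPM in opt3-2 shoots, and 1.28, 1.97 and 2.84 CPM in wild type roots against 9.57, 5.24 and 7.94 CPM in opt3-2 roots. The groups did not overlap in either tissue, and the rise was larger in roots (1.90 ± 0.27) than in shoots (0.74 ± 0.22; adjusted p of the difference 0.0177). HB7 and HB12, homeodomain factors induced by the hormone, rose by 1.05 in shoots and 0.79 in roots and by 0.54 in shoots and 0.82 in roots respectively. Among members that did not pass in both tissues, NAC019 rose by 3.01 in roots and stood at -0.20 in shoots (adjusted p 0.576), RD29A at 0.02 in shoots and 2.12 in roots, and ABF3 at 1.06 in shoots and -0.09 in roots. COR15A, ERD10 and LTI30 were not called on average, and HAI3 and AHG1 were too low to be tested.

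The clade A phosphatases rose together. ABI1, ABI2, HAI1, HAI2 and PP2CA, 5 of the 6 tested members, were higher in both tissues, and HAB1 was called in shoots only (0.63 in shoots and 0.18 in roots, adjusted p 0.0965 in roots). HAI1 stood at 13.0, 10.6 and 14.3 CPM in wild type shoots and 35.1, 36.6 and 24.2 CPM in opt3-2 shoots, and 1.66, 1.43 and 1.98 CPM in wild type roots against 9.45, 8.83 and 10.4 CPM in opt3-2 roots. Its groups were far apart in both tissues, with a larger rise in roots (2.50 ± 0.19) than in shoots (1.33 ± 0.16; adjusted p of the difference 0.00234). ABI1, the more highly read phosphatase gene, stood at 95.2, 105 and 99.6 CPM in wild type shoots and 187, 193 and 176 CPM in opt3-2 shoots, and 133, 128 and 148 CPM in wild type roots against 174, 165 and 181 CPM in opt3-2 roots. It changed by 0.89 in shoots and 0.35 in roots, the opposite order of sizes (adjusted p of the difference 0.000655). ABI2 rose evenly, by 0.71 in shoots and 0.55 in roots.

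The receptors upstream of those phosphatases, a list chosen after their values were seen, behaved otherwise. Of 10 tested receptor genes, PYL4, PYL5 and PYL6 fell in both tissues and PYL7 rose in both. PYL6 stood at 0.992, 1.13 and 1.35 CPM in wild type shoots and 0.705, 0.670 and 0.467 CPM in opt3-2 shoots, and 65.7, 80.3 and 72.8 CPM in wild type roots against 21.0, 20.2 and 18.9 CPM in opt3-2 roots. No opt3-2 library reached the wild type range, and the fall was larger in roots (-1.86 ± 0.09) than in shoots (-0.91 ± 0.20; adjusted p of the difference 0.00575). PYL4 fell by 1.25 in shoots and by 0.59 in roots on the log2 scale, and PYL5 by 0.72 and 0.90. PYL7 changed in the other direction, by 0.31 in shoots and 0.53 in roots. PYR1 and PYL9 rose in shoots and fell in roots (0.23 in shoots and -0.97 in roots for PYR1). The median averaged log2 fold change of the 10 genes was -0.42.

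Some regulators and sugar synthesis genes of dehydration also rose in both tissues, again in lists chosen after their values were seen. DREB2A, DREB2B and DREB2C, transcription factors of the drought and heat response, rose in both tissues (3 of 3). DREB2C, with 15 counts over the wild type shoot libraries, changed by 1.36 in shoots and 1.78 in roots, DREB2B by 1.18 in shoots and 1.53 in roots and DREB2A by 0.67 in shoots and 1.01 in roots. Of 4 galactinol synthases, which make the first precursor of raffinose-type sugars, GolS2 and GolS4 rose in both tissues. GolS2, the largest shared rise among genes with groups apart and a mean of 5 CPM or more in 1 genotype of each tissue, stood at 123, 163 and 132 CPM in wild type shoots and 306, 407 and 349 CPM in opt3-2 shoots, and 2.19, 1.997 and 3.09 CPM in wild type roots against 27.9, 29.7 and 38.4 CPM in opt3-2 roots. It rose by 1.34 ± 0.16 in shoots and 3.72 ± 0.20 in roots (adjusted p on average 9.23e-07). GolS4 changed by 2.28 in shoots and 2.95 in roots, whereas GolS1 fell in shoots (-1.23) and was not called in roots.

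The abscisic acid response element, ACGTGGC or ACGTGTC on either strand, was looked for in the 250 bases before each annotated gene start, which could be read for 21740 of the tested genes. It was held by 7.001% of all tested genes, by 12.2% of the shared rises, by 3.96% of the shared falls and by 8.44% of the genes called with opposite signs. Among the 87 genes that rose 2-fold or more in both tissues the share was 16.1%, and in the abscisic acid list it was 32.0% (8 of 25). In the sulfur list described below it was 15.0% (3 of 20). Other short elements were searched in the same windows, and the shares of some differed too. The evening element, AAAATATCT, was held by 2.44% of all tested genes, 4.01% of the shared rises and 1.099% of the shared falls. The element ACCGAC was held by 5.06% of all tested genes, 5.35% of the shared rises and 10.3% of the 87 genes. Differences between these shares were not tested. A match is a description of the letters and not a shown binding site. Of the other shared rises in the abscisic acid list, PP2CA held 2 matches, whereas ABI1, HAI1 and NCED3 had no match. NAC019 and HAB1 held 1 match each without passing in both tissues. The stretches of 4 shared rises that hold the abscisic acid response element are shown as examples. Each was read from the TAIR10.1 assembly (RefSeq) on the gene's strand, with the element in capitals and 20 bases or fewer on either side.
RD29B, chr5:21236938-21237020, plus strand: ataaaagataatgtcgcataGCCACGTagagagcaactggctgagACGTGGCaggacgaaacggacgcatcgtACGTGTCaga
LEA4-5, chr5:2090457-2090517, minus strand: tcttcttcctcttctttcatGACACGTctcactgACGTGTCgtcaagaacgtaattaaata
LEA7, chr1:19619487-19619571, plus strand: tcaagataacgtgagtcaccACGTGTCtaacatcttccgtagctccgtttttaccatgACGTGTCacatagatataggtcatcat
RAB18, chr5:26519532-26519578, minus strand: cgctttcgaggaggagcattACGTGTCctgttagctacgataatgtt
RD29B thus held 3 matches, the nearest ending 3 bases before the annotated start, LEA4-5 and LEA7 held 2 each, and RAB18 held 1.

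Sulfur genes were another list in which many members rose in both tissues. Plants take up sulfate, reduce it to sulfide for cysteine and glutathione, and build phytochelatins, the peptides that bind cadmium, from glutathione. Of 20 tested members, 13 were higher and 1 lower on average, and 10 rose in both tissues while 0 fell in both. The median averaged log2 fold change was 0.52. For all tested genes the shares were 12.6% higher and 18.7% lower on average, and 2.76% risen in both tissues. The 10 were the transporters SULTR2;1 and SULTR4;2, the reductase APR1, the low-sulfur marker genes LSU1, LSU2, LSU3, SDI1 and SDI2, the glutathione-degrading GGCT2;1, and SHM7.

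SULTR2;1, a sulfate transporter of the vascular tissue, stood at 152, 193 and 148 CPM in wild type shoots and 337, 306 and 312 CPM in opt3-2 shoots, and 11.6, 13.7 and 14.8 CPM in wild type roots against 90.3, 97.2 and 92.7 CPM in opt3-2 roots. The rise in roots, 2.80 ± 0.11, exceeded that in shoots, 0.96 ± 0.10 (adjusted p of the difference 4.2e-06). APR1, which catalyses the reductive step of sulfate assimilation, stood at 49.6, 43.4 and 53.9 CPM in wild type shoots and 96.4, 108 and 123 CPM in opt3-2 shoots, and 82.9, 102 and 80.0 CPM in wild type roots against 169, 162 and 182 CPM in opt3-2 roots. Its groups were apart in both tissues, with log2 fold changes of 1.16 in shoots and 0.95 in roots. Other steps of assimilation did not share this: APR2 was not called on average, APR3 fell in shoots and rose in roots (-0.39 in shoots and 0.71 in roots), and SIR and ATPS4 were not called on average.

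LSU1, a gene induced by low sulfur, stood at 0.372, 1.19 and 0.429 CPM in wild type shoots and 9.99, 9.77 and 6.03 CPM in opt3-2 shoots, and 4.22, 4.44 and 6.38 CPM in wild type roots against 11.2, 11.0 and 14.4 CPM in opt3-2 roots. Its rise was larger in shoots (3.66 ± 0.37) than in roots (1.28 ± 0.27; adjusted p of the difference 0.00151). LSU2 rose by 0.48 in shoots and 1.35 in roots and LSU3 by 1.48 in shoots and 1.60 in roots; the LSU genes are close copies, and reads that map to several places may have been split among them. GGCT2;1, whose product releases amino acids from glutathione, rose by 1.53 in shoots and 1.63 in roots. The repressors of glucosinolate synthesis SDI1 and SDI2 rose by 0.63 in shoots and 0.46 in roots and by 0.57 in shoots and 0.47 in roots respectively. BGLU28 rose in roots alone (6.05 ± 0.23; -0.69 ± 0.51 in shoots), and the high-affinity root transporter SULTR1;1 was lower in roots (-0.71).

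Sulfate transporters as a family, a list completed after their values were seen, did not move as one. Of 12 tested, SULTR1;3, SULTR2;1, SULTR3;1 and SULTR4;2 rose in both tissues and SULTR3;3, listed as AST91 in RefSeq, fell in both. SULTR1;3, a phloem transporter, was read at 0, 0.0341 and 0.0330 CPM in wild type shoots and 0.392, 0.391 and 0.374 CPM in opt3-2 shoots, and 0.217, 0.164 and 0.151 CPM in wild type roots against 3.05, 3.07 and 3.28 CPM in opt3-2 roots. The wild type shoot libraries held 2 counts in all and the opt3-2 shoot libraries 25, against 22 and 259 in roots, so no fold is given for shoots. In roots the log2 fold change was 4.11 ± 0.23. SULTR3;3 stood at 74.9, 50.6 and 69.6 CPM in wild type shoots and 26.3, 21.4 and 25.9 CPM in opt3-2 shoots, and 8.30, 6.63 and 6.08 CPM in wild type roots against 3.09, 2.73 and 2.47 CPM in opt3-2 roots. It fell by 1.40 in shoots and by 1.35 in roots on the log2 scale (adjusted p on average 1.63e-05).

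Aliphatic glucosinolates are sulfur-rich defence compounds made from methionine. Of 15 tested genes of their synthesis, 14 were higher and 1 lower on average, with a median of 0.86, but only 6 rose in both tissues, since all 15 rose in shoots and 6 in roots. Among all tested genes, 21.3% rose in shoots, 17.5% in roots and 2.76% in both. The 6 were BCAT4, IMD1 and IPMI2, which lengthen the methionine side chain, CYP79F2, which forms the oxime, and UGT74C1 and SOT17, which complete the molecule. IMD1 stood at 48.5, 43.5 and 51.6 CPM in wild type shoots and 164, 159.6 and 218 CPM in opt3-2 shoots, and 40.2, 40.5 and 43.2 CPM in wild type roots against 55.3, 50.6 and 56.1 CPM in opt3-2 roots. The shoot rise of 1.91 ± 0.11 was larger than the root rise of 0.39 ± 0.11 (adjusted p of the difference 1.57e-05). CYP79F2 rose by 1.30 in shoots and 0.95 in roots. The chain-elongating MAM1 and the regulator MYB28 rose in shoots and fell in roots (2.11 in shoots and -0.72 in roots for MAM1 and 0.49 in shoots and -1.38 in roots for MYB28). Values of all members of these 3 lists are plotted with their standard errors.

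**Figure D2:**
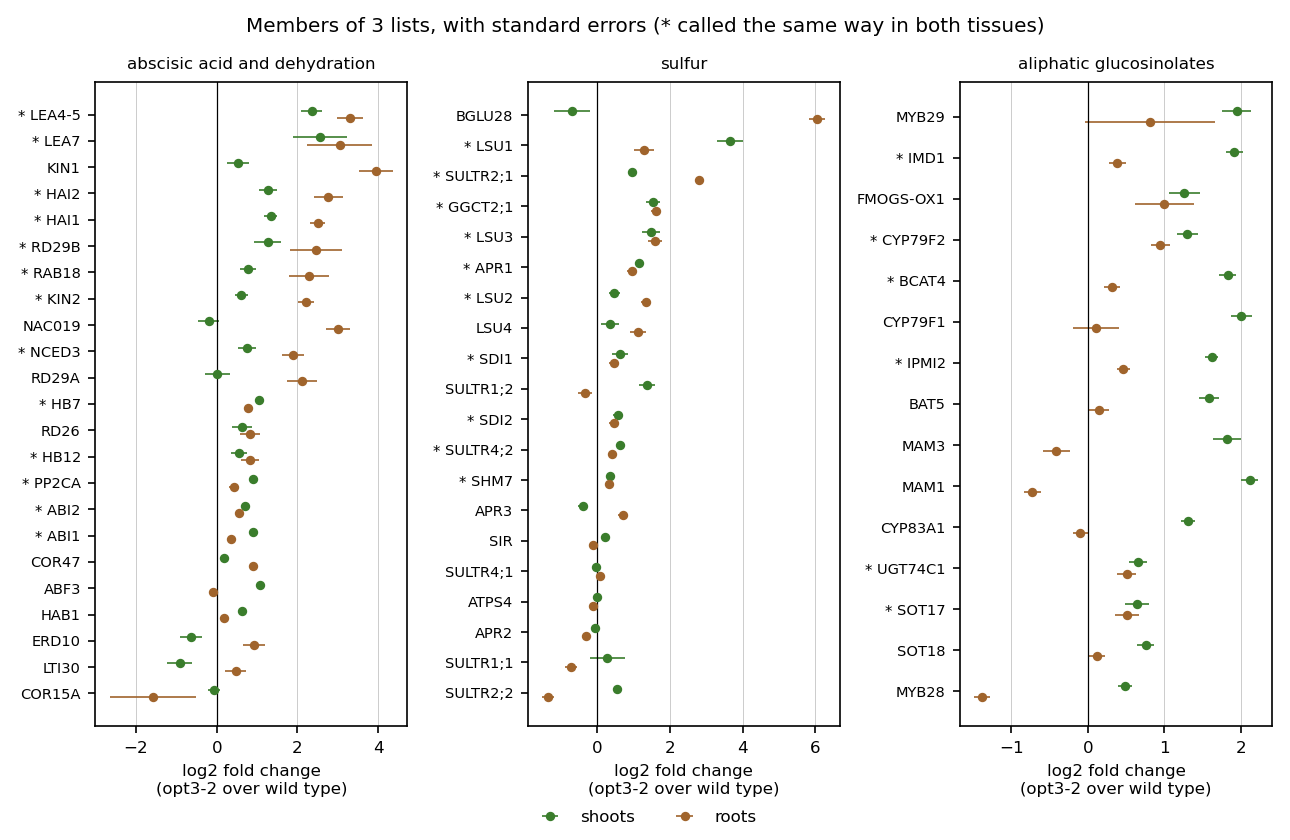
Log2 fold change of opt3-2 over wild type in shoots (green) and roots (brown) for each tested member of the abscisic acid and dehydration, sulfur and aliphatic glucosinolate lists, with standard errors from the fit. Asterisks mark the 13, 10 and 6 members called the same way in both tissues, and the glucosinolate rises are larger in shoots.

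Iron uptake genes rose on average, but mostly through the root. Among all tested genes, 12.6% were higher on average, 17.5% rose in roots, 21.3% in shoots and 2.76% in both. Of 21 tested iron uptake genes, 13 were higher and 2 lower on average (median 0.82), 16 rose in roots and 6 in shoots, and 4 rose in both. Those 4 were FRO2, the ferric chelate reductase, IRT1, the main iron transporter of the root surface, NAS1, which makes the metal chelator nicotianamine, and CYP82C4, which modifies secreted coumarins. FRO2 stood at 5.16, 6.92 and 5.15 CPM in wild type shoots and 11.8, 10.8 and 9.07 CPM in opt3-2 shoots, and 35.1, 23.7 and 21.5 CPM in wild type roots against 213, 341 and 323 CPM in opt3-2 roots. Its groups were apart in both tissues, and the root rise of 3.45 ± 0.23 exceeded the shoot rise of 0.88 ± 0.25 (adjusted p of the difference 0.000134).

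In shoots these genes were read at low levels. IRT1 stood at 0.537, 0.818 and 0.924 CPM in wild type shoots and 2.62, 1.51 and 2.20 CPM in opt3-2 shoots, and 100.5, 83.1 and 83.1 CPM in wild type roots against 357, 438 and 500.1 CPM in opt3-2 roots, with log2 fold changes of 1.47 in shoots and 2.28 in roots. For CYP82C4 the shoot levels were 0.124, 0.341 and 0.165 CPM in wild type and 1.097, 1.06 and 0.794 CPM in opt3-2, and the changes 2.18 in shoots and 3.84 in roots. The regulator FIT was called in roots only (1.19; 0.14 in shoots, adjusted p 0.614). The summed level of the 6 root markers in opt3-2 shoots was 59.0 to 64.7 CPM, against 77.4 to 87.1 CPM in wild type shoots. The marker PYK10 alone stood at 57.7 to 63.1 CPM in opt3-2 shoots and 74.9 to 85.1 CPM in wild type shoots. These sums therefore mainly follow that gene, and 1 or 2 of the 6 markers were at 0 in each shoot library.

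Regulators and signals of iron deficiency did not move as a group. Of 23 tested, 4 were higher and 7 lower on average, with a median of 0.01, and 5 were called with opposite signs. The shares of all tested genes were 12.6%, 18.7% and 14.6%. Shared rises were BHLH39, a partner of FIT, at 0.57 in shoots and 0.75 in roots, and the 14-3-3 gene GRF11 at 0.35 in shoots and 0.39 in roots. Shared falls were OPT3 itself, BTSL1, a ubiquitin ligase that restrains iron uptake, and ORG1. The OPT3 log2 fold change was -4.02 ± 0.25 in shoots and -2.86 ± 0.25 in roots (adjusted p on average 1.2e-06, of the difference 0.0144). BTSL1 stood at 4.92, 4.36 and 5.64 CPM in wild type shoots and 3.76, 3.24 and 2.38 CPM in opt3-2 shoots, and 241, 261 and 253 CPM in wild type roots against 145, 114 and 110.2 CPM in opt3-2 roots, with log2 fold changes of -0.66 in shoots and -1.03 in roots. IMA3, a mobile iron signal peptide, fell in shoots and rose in roots (-0.77 in shoots and 0.93 in roots). Genes of iron storage and sufficiency showed no member moving the same way in both tissues: 8 of 10 rose in shoots and 1 in roots, and FER1 and VIT1 could not be tested. Among all tested genes, 21.3% rose in shoots and 17.5% in roots.

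Of 4 zinc genes called in both tissues, 2 fell in both and 2 had opposite signs. Of 14 tested members, 1 was higher and 5 lower on average (median -0.18), and ZIP4 and IRT3, plasma membrane transporters that zinc-deficient plants raise through the factors bZIP19 and bZIP23, fell in both. Among all tested genes, 18.7% were lower on average and 2.09% fell in both. ZIP4 stood at 26.8, 26.7 and 24.4 CPM in wild type shoots and 11.1, 11.6 and 13.4 CPM in opt3-2 shoots, and 19.2, 20.9 and 17.3 CPM in wild type roots against 10.3, 10.4 and 9.70 CPM in opt3-2 roots. The groups were apart in both tissues, and the fall was even: -1.11 ± 0.09 in shoots, -0.91 ± 0.09 in roots and a 95% interval of -0.47 to 0.08 for the difference. IRT3 stood at 58.5, 58.8 and 58.0 CPM in wild type shoots and 24.7, 22.8 and 29.0 CPM in opt3-2 shoots, and 62.0, 58.4 and 53.2 CPM in wild type roots against 35.6, 43.8 and 42.6 CPM in opt3-2 roots. The wild type ranges of both tissues overlapped, the genotypes did not, and the fall was larger in shoots (-1.20 ± 0.10) than in roots (-0.51 ± 0.10; adjusted p of the difference 0.00146). BZIP19 and BZIP23 themselves were not called (-0.03 ± 0.05 and 0.04 ± 0.09 on average). HMA2 and HMA4, which load zinc into the xylem, rose in shoots and fell in roots (0.83 in shoots and -1.72 in roots for HMA2).

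The zinc-deficiency response element, TGTCGACA, is the sequence bound by bZIP19 and bZIP23. In the same 250-base windows it occurred in 0.271% of all tested genes, in 2 of 598 shared rises, in 3 of 455 shared falls and in 3 of the 14 zinc genes. Both shared falls of the list held it, and so did ZIP10, which had no reads in shoots. The 2 stretches are shown because both genes fell in both tissues; they were read as above, with the element in capitals.
ZIP4, chr1:3667151-3667198, minus strand: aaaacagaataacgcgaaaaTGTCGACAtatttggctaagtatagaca
IRT3, chr1:22447300-22447343, minus strand: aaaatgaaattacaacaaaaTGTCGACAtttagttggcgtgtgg
The elements ended 31 and 16 bases before the annotated starts of ZIP4 and IRT3.

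The copper list held more shared changes than the cadmium list. Of 14 copper genes, 5 were higher and 0 lower on average (median 0.10), and FSD1, CCH and YSL2 rose in both tissues. Among all tested genes, 12.6% were higher on average and 2.76% rose in both. FSD1, the iron superoxide dismutase, stood at 401, 365 and 371 CPM in wild type shoots and 799, 826 and 914 CPM in opt3-2 shoots, and 423, 404 and 483 CPM in wild type roots against 497, 556 and 543 CPM in opt3-2 roots. It rose by 1.16 ± 0.09 in shoots and 0.29 ± 0.09 in roots. The copper chaperone CCH rose evenly (0.45 in shoots and 0.33 in roots), as did the metal-nicotianamine transporter YSL2 (0.45 in shoots and 0.54 in roots). Of 16 tested genes of cadmium detoxification, ABCC2, which moves phytochelatin complexes into the vacuole, was the 1 that moved in both tissues (0.33 in shoots and 0.39 in roots), and the list's median was 0.05.

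A group among the shared falls was that of the endoplasmic reticulum (ER) body, a compartment of Brassicaceae cells that stores beta-glucosidases active against glucosinolates. This list of 18 genes was chosen after their values were seen. On average 1 was higher and 14 lower, and NAI2, MEB1, PYK10, PBP1, JAL34 and GLL22 fell in both tissues, while 0 rose in both. The median averaged log2 fold change of the 18 genes was -0.67. Among all tested genes, 18.7% were lower on average and 2.09% fell in both tissues. JAL34, a jacalin-type lectin of the PYK10 complex, stood at 69.0, 68.6 and 66.4 CPM in wild type shoots and 30.9, 31.2 and 31.5 CPM in opt3-2 shoots, and 1789, 1632 and 1530.2 CPM in wild type roots against 949, 888 and 829 CPM in opt3-2 roots. Its groups were apart and its fall was even, as the rule that named this gene required (-1.12 ± 0.08 in shoots and -0.89 ± 0.07 in roots). NAI2, needed to form ER bodies, stood at 37.0, 29.1 and 33.4 CPM in wild type shoots and 13.4, 12.2 and 12.8 CPM in opt3-2 shoots, and 688, 648 and 621 CPM in wild type roots against 393, 356 and 335 CPM in opt3-2 roots. It fell by 1.37 in shoots and by 0.85 in roots on the log2 scale.

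PYK10, the main beta-glucosidase of root ER bodies, and PBP1, a lectin that binds it, fell by less. PYK10 changed by -0.40 in shoots and -0.55 in roots and PBP1 by -0.68 in shoots and -0.76 in roots, both evenly. GLL22, a lipase-like protein of the complex, stood at 31.2, 14.1 and 26.7 CPM in wild type shoots and 1.53, 1.40 and 3.18 CPM in opt3-2 shoots, and 407, 404 and 400.4 CPM in wild type roots against 278, 239 and 225 CPM in opt3-2 roots. Its fall was much larger in shoots (-3.55 ± 0.34) than in roots (-0.71 ± 0.25; adjusted p of the difference 0.000362). TSA1 fell in shoots and rose in roots (-1.47 in shoots and 1.71 in roots), and the factor NAI1 fell in shoots (-1.27) and was not called in roots. PYK10 is also 1 of the 6 root markers. Their summed level in roots was 3269 to 3590 CPM in wild type and 2236 to 2463 CPM in opt3-2. Most of that sum was PYK10 itself, at 2990 to 3303 CPM in wild type roots and 2058 to 2239 CPM in opt3-2 roots. The median root log2 fold change of the 6 markers was 0.04, so the sum gives no separate measure of root tissue. The part of tissue make-up in the root values of this list was not tested. Several members are close copies of each other, so that reads may be shared between them.

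**Figure D3:**
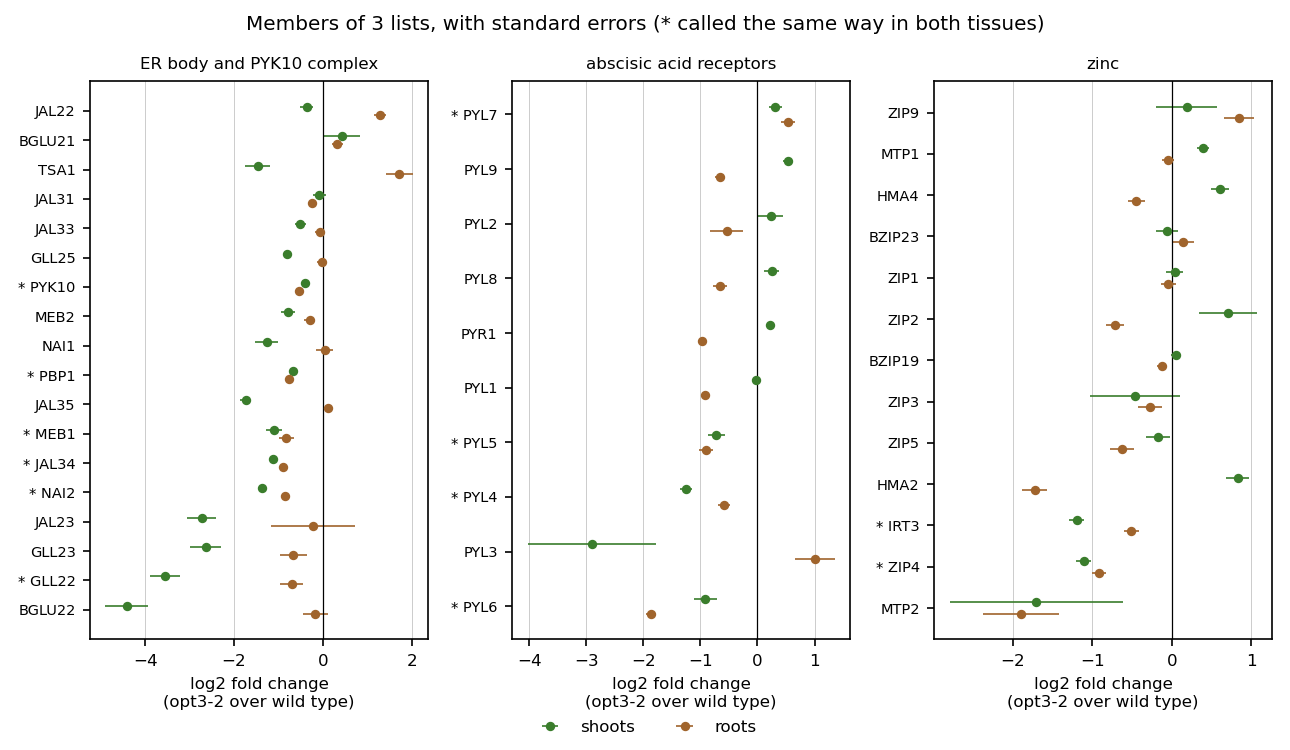
Log2 fold change of opt3-2 over wild type in shoots (green) and roots (brown) for the tested members of the ER body and PYK10 complex, abscisic acid receptor and zinc lists, with standard errors; ZIP10, without reads in shoots, is not drawn. Asterisks mark the members called the same way in both tissues: 6 lower in the first panel, 3 lower and PYL7 higher in the second, and ZIP4 and IRT3 lower in the third.

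Of the genes of leaf senescence, 4 rose in both tissues, roots included. Among 12 tested, 9 were higher and 1 lower on average (median 0.60), and the 4 were NYC1, NAP, ORE1 and PAO. For all tested genes the shares were 12.6% higher on average and 2.76% risen in both tissues. NYC1, which starts the breakdown of chlorophyll b, stood at 66.1, 82.5 and 67.4 CPM in wild type shoots and 228, 241 and 217 CPM in opt3-2 shoots, and 27.4, 19.3 and 27.4 CPM in wild type roots against 39.3, 39.8 and 43.5 CPM in opt3-2 roots. The groups were apart in both tissues, with a larger rise in shoots (1.67 ± 0.13) than in roots (0.73 ± 0.13; adjusted p of the difference 0.00113). NAP and ORE1, transcription factors that promote senescence, rose by 1.22 in shoots and 0.99 in roots and by 0.76 in shoots and 0.68 in roots. PAO, which opens the chlorophyll ring, rose by 0.52 in shoots and 0.85 in roots.

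Of 14 photosynthesis genes, 9 were higher and 0 lower on average (median 0.33), and PSAD1 and CHLH rose in both tissues. The shares of all tested genes were 12.6% higher on average and 2.76% risen in both. PSAD1, a photosystem I subunit, stood at 3.79, 4.49 and 5.32 CPM in wild type roots and 6.41, 6.31 and 9.10 CPM in opt3-2 roots. Of the 6 leaf markers, PSAD1 was the 1 called higher in roots. Their summed level was 43.9, 45.0 and 72.3 CPM in wild type roots and 65.8, 64.2 and 74.5 CPM in opt3-2 roots, so the groups overlapped. Without wild type root replicate 3, the library with 72.3 CPM, 8 photosynthesis genes passed in both tissues instead of 2. The part of the leaf marker difference in these root values was not tested. The phloem marker SUC2, a sucrose transporter of companion cells, also rose evenly (0.56 in shoots and 0.54 in roots), and it was the 1 of 7 phloem markers to move in both tissues.

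In the phosphate list 3 of 15 tested genes rose in both tissues, 0 fell in both and 4 were called with opposite signs (median 0.01). The shares of all tested genes were 2.76%, 2.09% and 14.6%. PAP17, an acid phosphatase released on phosphate shortage, stood at 36.3, 36.4 and 38.6 CPM in wild type shoots and 67.7, 75.8 and 63.9 CPM in opt3-2 shoots, and 10.8, 8.76 and 11.1 CPM in wild type roots against 19.0, 20.6 and 23.7 CPM in opt3-2 roots. Its rise was even, at 0.90 in shoots and 1.05 in roots. PHT1;4, a phosphate transporter, rose by 1.37 in shoots and 0.92 in roots and SPX1, a phosphate sensor, by 0.80 in shoots and 0.63 in roots. Oxidative stress genes showed CAT1, a catalase, and AOX1A, the alternative oxidase of mitochondria, rising in both tissues out of 21, with 6 called with opposite signs. CAT1 changed by 1.96 in shoots and 0.70 in roots and AOX1A by 0.46 in shoots and 1.22 in roots, the first larger in shoots and the second in roots (adjusted p of the difference 4.59e-05 and 0.00015).

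Several of the largest shared rises under the same limits on level and overlap belong to none of these groups. WRKY71, a transcription factor gene, stood at 0.744, 0.852 and 0.825 CPM in wild type shoots and 10.7, 10.2 and 9.81 CPM in opt3-2 shoots, and 15.2, 14.3 and 15.7 CPM in wild type roots against 23.2, 24.3 and 23.64 CPM in opt3-2 roots. Its libraries agreed closely within each group, and the rise of 3.65 ± 0.10 in shoots exceeded the 0.65 ± 0.07 in roots (adjusted p of the difference 6.83e-08). CYP71A12, an enzyme of indole defence compounds, stood at 9.38, 5.97 and 10.06 CPM in wild type shoots and 52.8, 49.6 and 48.4 CPM in opt3-2 shoots, and 116, 97.3 and 138 CPM in wild type roots against 377, 320.4 and 309 CPM in opt3-2 roots. It rose by 2.57 in shoots and 1.52 in roots, while its close relative CYP71A13 fell in shoots and rose in roots (-1.20 in shoots and 3.502 in roots).

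INT2, an inositol transporter, rose by 1.60 in shoots and 2.91 in roots on the log2 scale. AT3G49160, annotated as a pyruvate kinase family member, rose by 3.02 in shoots and 0.97 in roots, and AT5G39520, a gene of the DUF1997 family, by 2.01 in shoots and 1.86 in roots. QQS, an Arabidopsis orphan gene linked to starch content, stood at 6.36, 15.1 and 6.37 CPM in wild type shoots and 34.7, 32.5 and 40.0 CPM in opt3-2 shoots, and 1.86, 1.53 and 1.05 CPM in wild type roots against 9.18, 3.90 and 5.01 CPM in opt3-2 roots. The rule that named QQS required groups apart, and wild type shoot replicate 2 stood above the other wild type shoot libraries. The changes were 1.94 ± 0.37 in shoots and 2.01 ± 0.44 in roots, with a 95% interval of -1.29 to 1.15 for their difference. Among genes with groups apart and a mean of 5 CPM or more in 1 genotype of each tissue, the largest rises with an even effect were CRK18, a receptor-like kinase (1.12 in shoots and 1.07 in roots), BGLU11, a beta-glucosidase (0.89 in shoots and 1.06 in roots), and PAP17.

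Among the largest shared falls under those limits, HFR1, a factor that restrains shade responses, stood at 98.5, 117 and 105 CPM in wild type shoots and 33.4, 52.4 and 43.5 CPM in opt3-2 shoots, and 7.96, 6.34 and 5.55 CPM in wild type roots against 2.41, 2.38 and 2.86 CPM in opt3-2 roots. Its groups were apart, as those limits required, and the log2 fold change was -1.31 ± 0.15 in shoots and -1.37 ± 0.20 in roots. The bHLH gene AT2G31730 (-1.30 in shoots and -1.36 in roots) and AT1G20380, a prolyl oligopeptidase family gene (-1.50 in shoots and -1.25 in roots), also fell in both, with no interaction called. MES1, a methylesterase, fell more in shoots (-2.40 in shoots and -0.71 in roots), as did the kinase gene RBK1 (-2.004 in shoots and -0.65 in roots) and the noncoding RNA AT5G07322 (-1.67 in shoots and -0.83 in roots), whereas the uncharacterized AT4G39675 fell more in roots (-0.76 in shoots and -2.45 in roots). ROD1, an enzyme of membrane and storage lipid synthesis, fell evenly (-0.82 in shoots and -0.70 in roots). Library values of 12 of the genes described are plotted together.

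**Figure D4:**
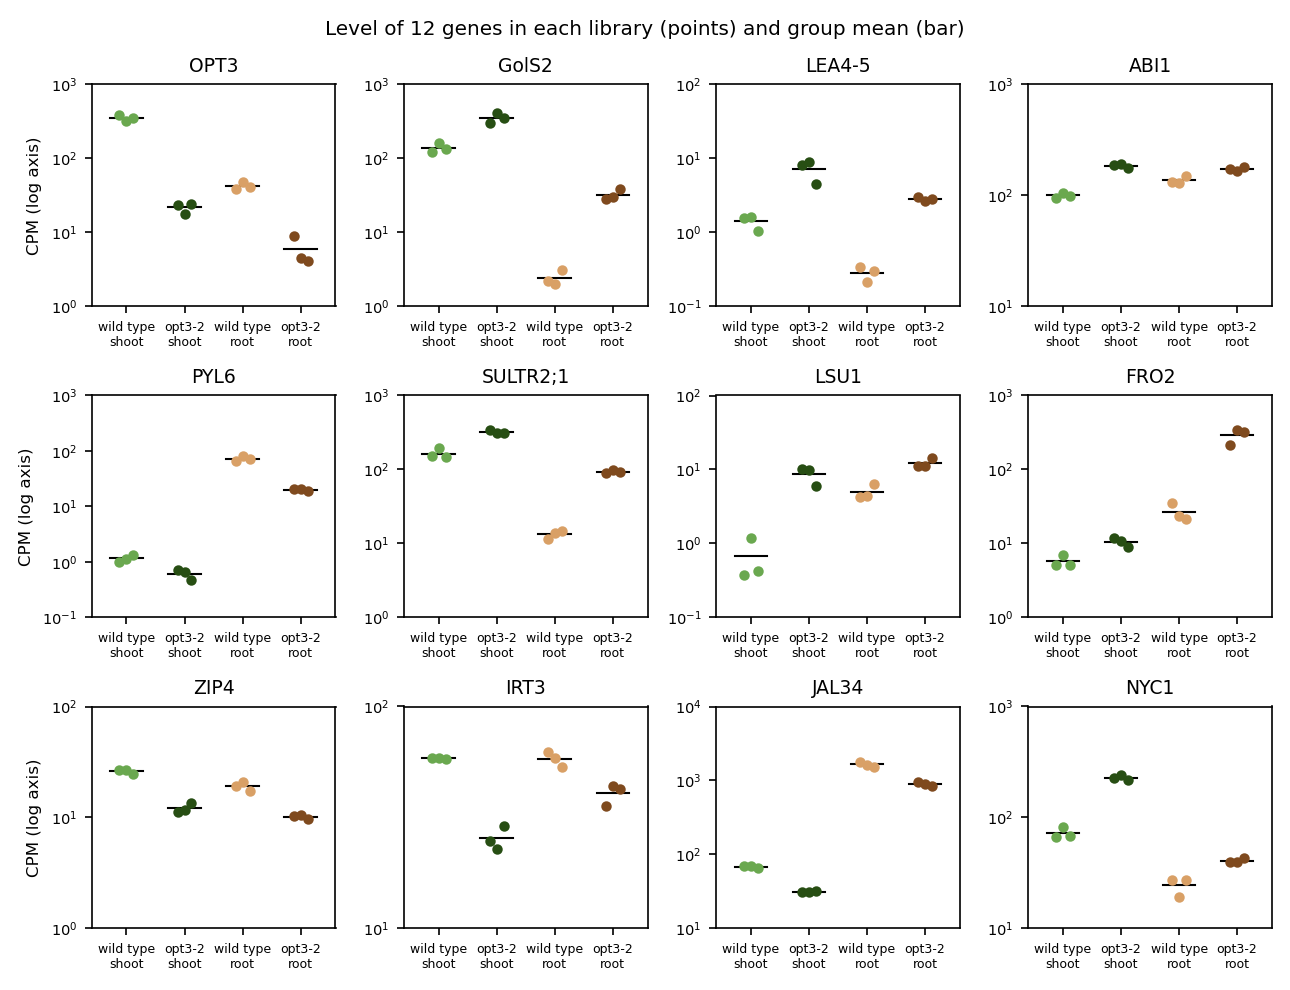
Level in CPM (log axis) of 12 genes in each of the 12 libraries, with wild type and opt3-2 shoots and roots on the x axis; points are libraries and bars group means (n = 3). In all 12 genes the wild type and opt3-2 points do not overlap in shoots or in roots.

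Of all tested genes, 14.6% were called in both tissues with opposite signs, and some lists held more. Of 9 ER chaperone genes, 8 fell in shoots and rose in roots, as did 9 of 13 cell cycle genes and 8 of 20 salicylic acid genes, and 0 genes of these 3 lists moved the same way in both tissues. In the jasmonate list 4 of 19 had opposite signs, nearer the share of all genes. The heat shock list (median 1.02 on average) had 13 of 16 members higher in roots and 1 in shoots, against 17.5% and 21.3% of all tested genes. Its 1 shared gene was the coactivator MBF1C (0.24 in shoots and 2.47 in roots), which did not pass in both with library sizes alone. KELCH, named here by its RefSeq symbol, was called higher on average (1.19 ± 0.05) and stood at 50.9, 47.0 and 48.1 CPM in wild type shoots and 40.8, 37.3 and 39.0 CPM in opt3-2 shoots, and 46.1, 43.6 and 45.6 CPM in wild type roots against 266, 307 and 309 CPM in opt3-2 roots. It fell by 0.32 in shoots and rose by 2.70 in roots on the log2 scale. AT5G52390, a PAR1 family gene (-3.16 in shoots and 2.29 in roots), and the dirigent-like AT1G55210 (-2.43 in shoots and 1.18 in roots) also fell in shoots and rose in roots. The reverse pattern was shown by the amino acid transporter gene UMAMIT20 (0.56 in shoots and -2.75 in roots), UMAMIT41 (0.79 in shoots and -0.54 in roots) and CYP709B3 (0.34 in shoots and -1.07 in roots). The bar plot of lists sets the shared and the opposite shares side by side.

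**Figure D5:**
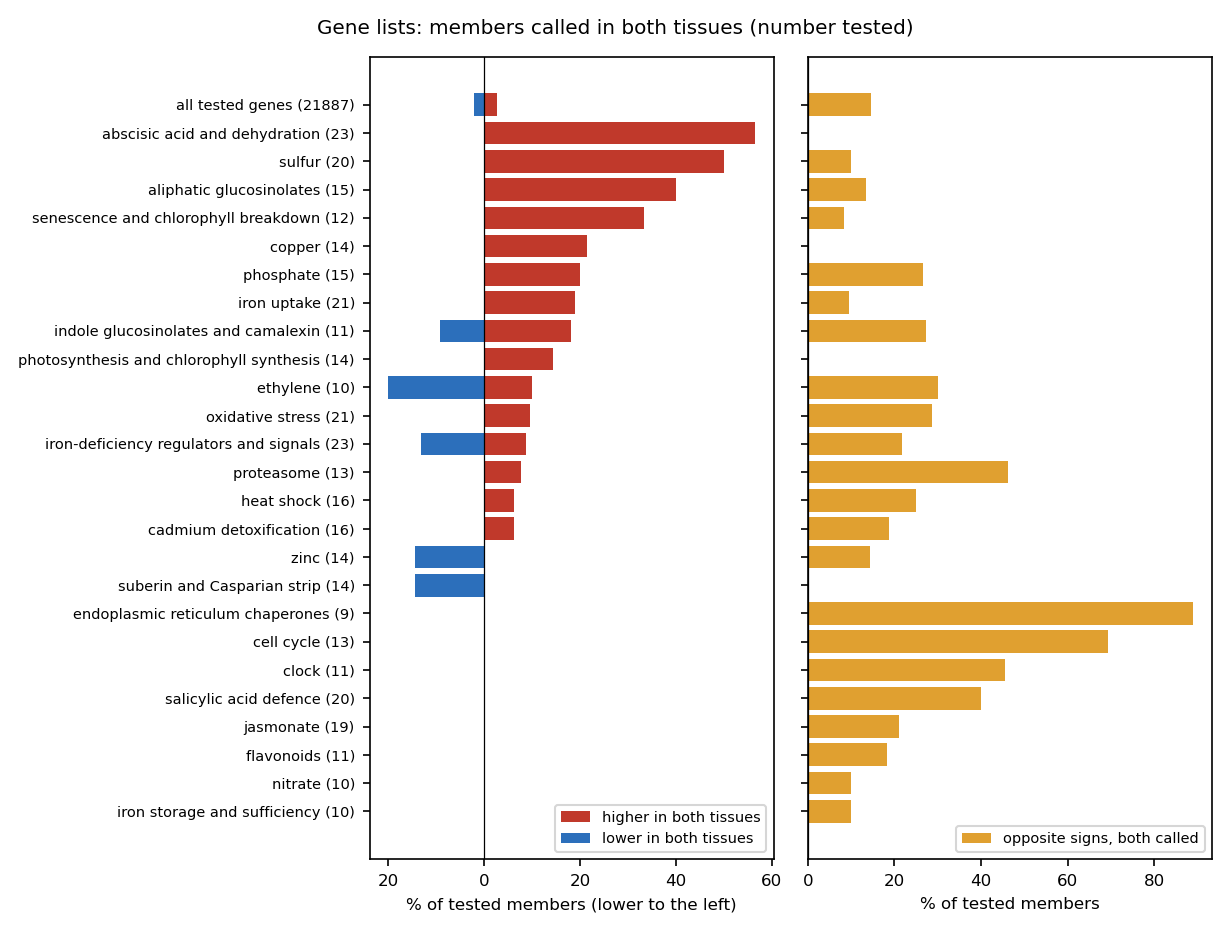
Share of tested members of each gene list (number tested in brackets) called higher or lower in both tissues (left, lower drawn to the left of 0) and called in both tissues with opposite signs (right), with all 21887 tested genes as the top row. The abscisic acid, sulfur and aliphatic glucosinolate lists have the largest shares of shared rises, and ER chaperones and cell cycle genes the largest shares of opposite signs.

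The ethylene, indole glucosinolate, suberin and proteasome lists also held shared genes. Of 10 ethylene genes, 1 rose and 2 fell in both tissues, against 2.76% and 2.09% of all tested genes. In the ethylene list ERS2 rose (0.26 in shoots and 0.55 in roots) and ETR2 and ACO1 fell in both tissues; ERS2 did not pass in both with library sizes alone, nor did ETR2 and ACO1 with DESeq2's size factors. SUR1 rose and CYP79B3 fell among 11 genes of indole glucosinolates and camalexin, besides CYP71A12, and CYP79B3 did not pass in both with DESeq2's size factors. Of 14 suberin and Casparian strip genes, 5 were lower and 0 higher on average, and GPAT5 and FAR4, which make suberin monomers, fell in both (-0.64 in shoots and -0.45 in roots for GPAT5), though neither passed in both by DESeq2. The proteasome regulator NAC78 rose evenly (0.23 in shoots and 0.23 in roots). No member of the nitrate, clock, flavonoid or xylem lists moved the same way in both tissues.

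Genes next to OPT3 on chromosome 4 had smaller effects than OPT3. Of the 3 annotated genes on each side, 5 were tested: CBL6 (-0.75 ± 0.24 on average, adjusted p 0.0296), AT4G16360 (-0.15 ± 0.03) and AT4G16380 (-0.28 ± 0.07) were called lower on average, and AT4G16355 and SVR7 were not. None passed in both tissues, and CBL6, with 28 counts over the wild type shoot libraries, lost its call on average without wild type shoot replicate 2, opt3-2 shoot replicate 1, opt3-2 shoot replicate 3 or opt3-2 root replicate 3. The 1 run of 3 or more neighbouring genes that moved the same way was AT1G13607 to AT1G13609, 3 defensin-like genes of chromosome 1 that rose. Few reads lay behind the root rises. AT1G13607 held 0 counts over the wild type and 3 over the opt3-2 root libraries, and AT1G13608 held 2 and 14.

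Organelle transcripts were higher in opt3-2 roots. They made up 0.0394% to 0.0401% of counts in wild type roots and 0.0895% to 0.116% in opt3-2 roots, against 0.156% to 0.258% and 0.164% to 0.283% in shoots. Of 47 tested mitochondrial codes, 17 were higher and 0 lower on average (median 0.52) and 5 rose in both tissues. For 78 chloroplast codes the numbers were 6, 0 and 1 (median 0.29). Of all tested genes, 12.6% were higher on average and 2.76% rose in both tissues. The mitochondrial rises exceeded both shares, whereas the chloroplast rises fell short of both. The labels give poly(A) RNA, in which such transcripts are few, and the part of RNA selection in these values was not tested.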

How the data were processed

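RNA sequencing of 36 samples was analysed. Read counts per gene were deposited by the authors as one table of 36 columns, and the submitters' processing notes name the TAIR10 genome, TopHat2 and edgeR. Not given in the sources used here are how reads were counted, whether strand was used, how multi-mapping reads were handled and which annotation applied. The 3 technical columns of each library were summed to 12 libraries, in which 28775 genes were listed. Gene codes were named from RefSeq (TAIR10.1) for 28009 of them, and the other 766 held 0.154% of counts.

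Counts were analysed in R 4.3.3 with edgeR 4.0.16 (filterByExpr, trimmed mean of M-values, robust quasi-likelihood F test, 1 mean per group over all 12 libraries), which left 21887 genes and 8 residual degrees of freedom. Benjamini-Hochberg adjusted p below 0.05 was the threshold. The p-values measure the spread between samples of pooled plants. CPM per library uses the scaled library sizes, and log2 fold changes are given with standard errors (SE). Alternatives used DESeq2 1.42.0, limma 3.58.1 and other scalings, filters and library sets. The procedure was tested on simulated data.

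The members and lists were chosen with earlier results of these data known, and 5 lists were added after values were seen. Genes named were OPT3, its neighbours, the 10 largest shared rises and falls and the 3 largest even ones among genes with groups apart in both tissues and a mean of at least 5 CPM in 1 genotype of each tissue, the members of each list with the smallest averaged p (3 for iron, zinc, sulfur and abscisic acid, otherwise 2), and 3 genes of each opposite pattern by interaction p. Other list members were described after their values were seen.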

Additional observations from a re-analysis of the deposited data

Results flagged for a closer look

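The genotype effect differed in size or direction between shoots and roots, by edgeR's test of the interaction at an adjusted p below 0.05, for 32 of the 68 genes named by rule, against 48.2% of all tested genes. The values in brackets are the shoot minus the root log2 fold change.

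Among genes that rose in both tissues, the rise was larger in shoots for LSU1 (2.376), WRKY71 (2.999), CYP71A12 (1.055), AT3G49160 (2.053), FSD1 (0.8736), IPMI2 (1.15), IMD1 (1.526), ABI1 (0.5462), CAT1 (1.26) and NYC1 (0.9409). It was larger in roots for GolS2 (-2.38), INT2 (-1.309), FRO2 (-2.572), HAI1 (-1.163), CYP82C4 (-1.655), SULTR2;1 (-1.847), AOX1A (-0.7596) and MBF1C (-2.229).

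Among genes that fell in both tissues, the fall was larger in shoots for OPT3 (-1.161), GLL22 (-2.842), MES1 (-1.687), RBK1 (-1.349), AT5G07322 (-0.8446) and IRT3 (-0.6856). It was larger in roots for AT4G39675 (1.7).

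Of the genes that did not move the same way in both tissues, the shoot effect lay above the root effect for UMAMIT20 (3.311), UMAMIT41 (1.325) and CYP709B3 (1.405) and below it for AT5G52390 (-5.454), KELCH (-3.023), AT1G55210 (-3.609) and AT4G16380 (-0.5643). The second group includes AT4G16380, a neighbour of OPT3 that was called in shoots only, while the rest were called in both tissues with opposite signs and were chosen for that difference.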

How the results depend on the processing

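No named gene's effect changed sign under any alternative run, but the balance of rises and falls turned with the scaling: 3541 higher and 3335 lower on average by DESeq2. Of the 1061 genes that moved the same way, 916 did so with DESeq2's size factors in edgeR and 891 with library sizes alone, where the split into rises and falls moved as given above. Even shared falls numbered 169 with DESeq2's size factors in edgeR and 169 by DESeq2. The additive model called 1398 higher and 1372 lower on average, in place of 2760 and 4103. With technical replicate 1 of each library alone, 2616 genes were lower on average, 227 were lower in both tissues, 2028 were opposite, and 111 rises and 110 falls were even. Requiring a 2-fold change left 394 and 255 genes on average, 87 and 18 in both tissues, 228 opposite, and 3 and 0 even.

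Leaving out 1 library at a time gave 2226 to 2813 higher and 3367 to 4154 lower on average, 471 to 651 higher and 313 to 451 lower in both tissues, 2461 to 3619 opposite, and 129 to 204 even rises and 167 to 252 even falls. The lowest even counts came without wild type root replicate 2, a drop of over 1.5 times. With wild type shoot replicate 2 and opt3-2 shoot replicate 3 both left out, a choice made after seeing the data, 723 rose and 400 fell in both tissues.

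With the replicate number as a term (replicate block), 564 rose and 399 fell in both tissues, and 915 of the 1061 genes were kept. Deviations from the group means correlated at -0.31 to 0.13 between same-numbered libraries and at -0.38 to 0.39 between libraries of unlike number. No pairing by number was seen. With 3 libraries in each group these values cannot exclude shared plants or a shared harvest, which the labels do not state.

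Of the 68 named genes, 59 kept their call (of the averaged effect, or of the interaction for genes with opposite effects) under every alternative. FAR4, GPAT5, CBL6, MBF1C, ERS2, CHLH, AT4G16360 and AT4G16380 lost it under at least 1, and AT4G16355 gained it in the additive model (adjusted p 0.0164). A separate fit of each tissue gives no averaged test, so there the call was a pass in both tissues, a stricter demand. CBL6, AT4G16360 and AT4G16380 did not meet that demand in the fit of all 12 libraries either, so failing it there is no loss of an averaged call. Of the 57 named genes that moved the same way in both tissues, 49 to 57 still did under each alternative other than the 2-fold limit, which left 17, with 49 by limma-voom and without wild type shoot replicate 1. The cause was not tested. Few counts limit the comparison for some genes that passed in both tissues, as for SULTR1;3 and CYP82C4 in shoots and LEA7 in both tissues. For other genes with few counts, a failure to pass does not show equal levels.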
